A study of Mus musculus with 10 samples.

Results

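The interleukin-10, interleukin-6 and STAT3 genes were examined in macrophages sorted from mouse mammary tumours after treatment with a glutamine antagonist. The set was chosen by name and holds 10 genes: the cytokine genes Il10, Il6, Il12b and Ebi3, the receptor genes Il10ra, Il10rb, Il6ra and Il6st, the transcription factor gene Stat3 and the inhibitor gene Socs3. They fell on 10 different loci among the 46956 with a symbol in every table, and all 10 passed the filter on low counts. The loci of Ebi3 and Il10rb also list other genes. The mice were BALB/cJ and carried tumours grown from 100000 cells of 4T1, a mouse mammary carcinoma line, placed in the mammary fat pad. The 5 vehicle samples came from mice given PBS. The 5 JHU083 samples came from mice given JHU083 at 1 mg/kg between day 7 and day 13. JHU083 is a prodrug that releases a glutamine antagonist, 6-diazo-5-oxo-L-norleucine. Both groups were sorted on day 14 as living CD45+ CD11b+ F4/80+ cells without CD8, Ly6C or Ly6G. The labels do not say that each sample is 1 mouse, so p-values measure the spread between these samples.

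Interleukin-10 is a cytokine that restrains macrophage activation. It binds a receptor made of IL10RA and IL10RB and signals through Janus kinases to STAT3. Interleukin-6 binds the receptor encoded by Il6ra, and the complex signals through gp130, the product of Il6st, also to STAT3. SOCS3 is induced by STAT3 and blocks signalling from gp130, but not from the interleukin-10 receptor. The p40 protein encoded by Il12b is shared by interleukin-12 and interleukin-23, and EBI3 is a subunit of interleukin-27 and interleukin-35.

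Among the 10 genes, the treated samples showed less Il6, more Il6ra and more signal at the locus that holds Il10rb. The level of Il6 was 1.74-fold lower in JHU083, that of Il6ra 1.56-fold higher and that of the Il10rb locus 1.21-fold higher. Stat3, Socs3, Il10ra and Il6st did not pass the test, with log2 fold changes between -0.01 and 0.18. Il10 was low in 4 of the 5 treated samples and high in the other, and did not pass. By the edgeR quasi-likelihood test with Benjamini-Hochberg adjustment over 12500 loci at 0.05, 2 of the 10 genes were higher and 1 was lower. Over all loci tested, 36.7% were called, with 18.4% higher and 18.3% lower, so the share of these genes that was called is near that background. The groups did not overlap for 2 of the 10 genes, against 22.3% of all loci tested. With scaling to library size alone the split over all loci was 1564 higher and 3141 lower, against 2296 and 2293 with TMM scaling. The median log2 fold change was 0.05 over the 10 genes and 0.01 over all loci tested.

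**Figure D1:**
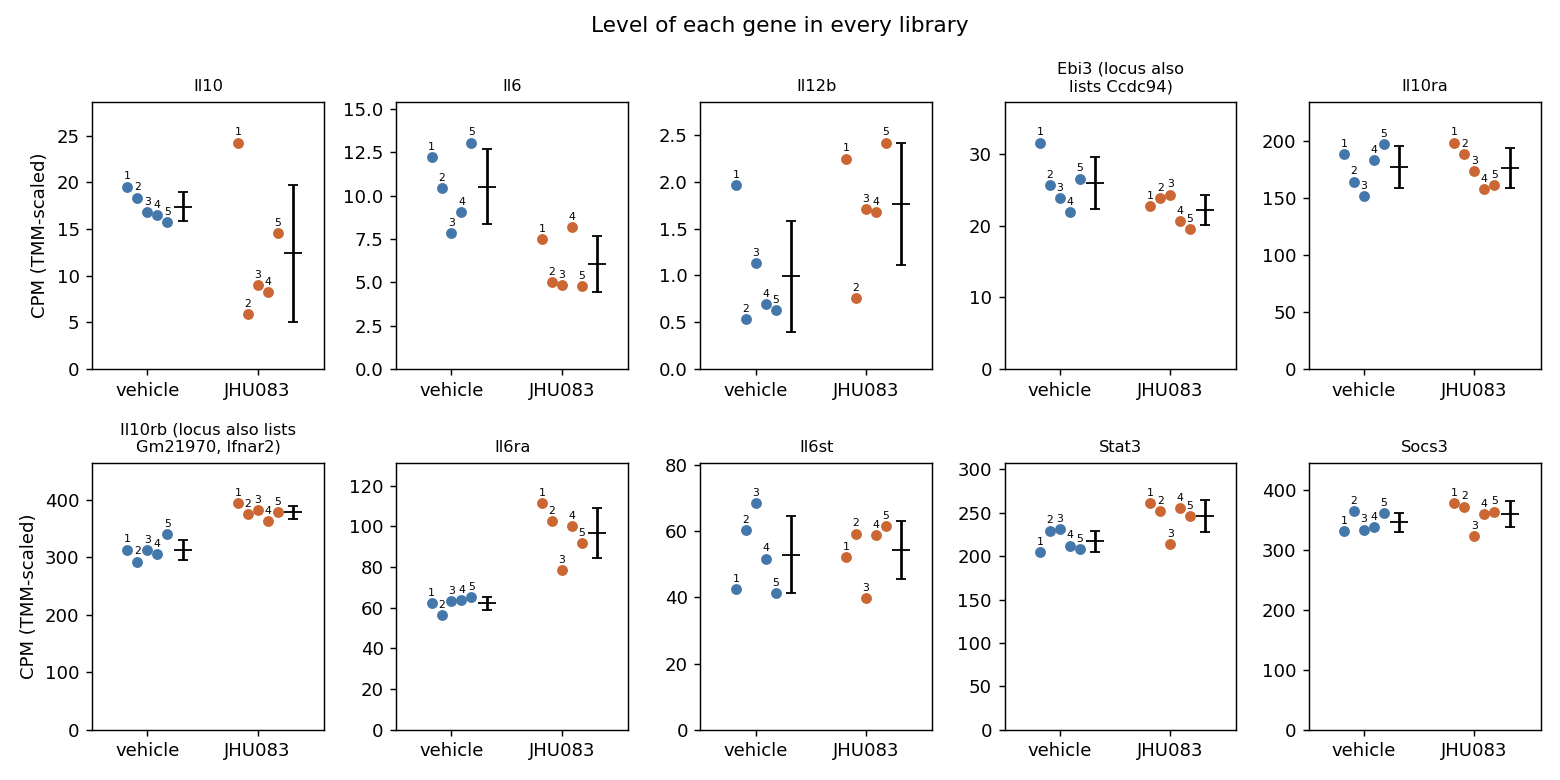
The level of each of the 10 genes in every library, in CPM, fragments scaled to a common library total by TMM (y axis, from 0), for vehicle and JHU083; numbers beside the points are replicate numbers and the black marks are the mean and SD of 5 samples. Il6ra and the Il10rb locus are separated between the groups, and Il10 in JHU083 spreads from 5.90 to 24.3.

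The cells and libraries were checked first. Macrophage genes (Csf1r, Adgre1, Itgam, Cd68, Fcgr1, Mertk and Ptprc) summed to between 4136 and 4549 CPM (fragments scaled to a common library total by the TMM method) in vehicle and to between 5443 and 6059 in JHU083, and 3 of the 7 were higher. The T cell genes Cd3d, Cd3e, Cd3g and Trac had at most 15 fragments in any library, and the B cell gene Ms4a1 at most 3. The 6 T cell genes summed to 14.3 to 17.8 CPM in vehicle and 27.0 to 43.4 in JHU083, mostly from Cd4 (means of 14.7 and 31.8), and the 5 B cell genes to 2.72 to 3.77 and 3.47 to 5.14. Markers of other cells moved with the groups. The 6 tumour epithelial genes summed to 262 to 549.9 CPM in vehicle and 93.5 to 194 in JHU083, and 5 of the 5 tested were lower. The 6 fibroblast genes summed to 73.2 to 157 and 18.4 to 85.0 CPM, with 4 of 6 lower. The 4 endothelial genes summed to 122 to 209.6 and 34.0 to 82.3 CPM, mostly from Pecam1 (means of 150.5 and 52.6), the 1 of 3 tested that was lower. The 6 neutrophil genes summed to 97.0 to 109 and 98.2 to 151 CPM, with 1 higher and 2 lower. Their sum came mostly from Csf3r, which rose (means of 58.4 and 84.5 CPM), while S100a8 and S100a9 fell (log2 fold changes of -1.40 and -2.18, edgeR adjusted p = 0.000872 and 0.000196). Monocyte genes gave 300.5 to 375 and 267 to 519 CPM, and dendritic cell genes 7.04 to 9.90 and 6.72 to 16.2. Natural killer cell genes gave 11.2 to 14.3 and 7.34 to 11.9 CPM, eosinophil genes 3.60 to 9.88 and 6.56 to 16.7, and mast cell or basophil genes 2.09 to 2.98 and 2.33 to 5.58. Each marker gene had fragments in at least 1 library. Library depth was 11147723 to 14575720 fragments in vehicle and 13638169 to 15740488 in JHU083. The mitochondrial share of fragments was 1.53% to 2.09% in vehicle and 2.14% to 2.44% in JHU083, so it was higher in every treated library, and its part in the results was not tested. In 5 libraries (vehicle 2, 4 and 5, JHU083 1 and 3) the abundant loci Rn18s-rs5 and Gm42418 were listed at 0. Differences within these libraries and within the other 5 are therefore given beside the main results.

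Sequence near the start is shown for the gene that fell and for the feedback gene, to place the motifs of factors known to act on them. Both stretches come from the RefSeq promoter table for GRCm38.p6, which held windows for 7 of the 10 genes. For Il6 the 250 bases before the start are printed, at chr5:30012864-30013113 on the plus strand. Capitals mark, in order, an AP-1 motif (TGAGTCA), a cyclic AMP response core (ACGTCA), a C/EBP motif (TTGTGCAAT) and the kappaB consensus, each searched on both strands. For Socs3 the 165 bases at chr11:117969452-117969616 on the minus strand are printed, which lie upstream of the coding transcript (start at 117969186) and outside annotated exons. They are within the gene's annotated span, in an intron of a longer non-coding transcript. Capitals mark the STAT palindrome TTCNNNGAA, which reads the same on both strands.
Il6: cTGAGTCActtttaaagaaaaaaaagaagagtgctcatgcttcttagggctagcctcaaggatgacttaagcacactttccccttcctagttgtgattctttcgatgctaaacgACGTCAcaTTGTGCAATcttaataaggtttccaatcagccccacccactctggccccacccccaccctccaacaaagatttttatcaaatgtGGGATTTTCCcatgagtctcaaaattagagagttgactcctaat
Socs3: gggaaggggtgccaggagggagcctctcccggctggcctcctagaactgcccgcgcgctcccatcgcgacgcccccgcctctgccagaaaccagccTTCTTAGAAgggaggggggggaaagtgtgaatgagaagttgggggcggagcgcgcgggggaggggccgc

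The 4 Il6 motifs began 249, 136, 128 and 44 bases before the start of transcription. Among 32851 promoter windows of 300 bases, 5.2% held the AP-1 motif, 7.51% the cyclic AMP response core, 0.18% the C/EBP motif and 8.46% the kappaB consensus. These motifs do not overlap one another in the Il6 sequence and were chosen with that sequence in view. The Socs3 palindrome began 334 bases before the start of the annotated coding transcript. TTCNNNGAA was found in 8.3% of all windows and in 1 of the 7 windows of these genes, that of Socs3. A match describes the letters only.

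Il6 (chromosome 5, 30013114 to 30019981, GRCm38) encodes the cytokine that gives the pathway its ligand. In vehicle replicates 1 to 5 its level was 12.2, 10.4, 7.85, 9.04 and 13.1 CPM, and in JHU083 replicates 1 to 5 it was 7.50, 5.00, 4.85, 8.18 and 4.78 CPM. Of the treated samples, 4 lay below every vehicle sample, and JHU083 replicate 4 lay above vehicle replicate 3, so the groups overlapped. The vehicle mean was 10.5 ± 2.167 CPM and the JHU083 mean 6.06 ± 1.64 (SD, n = 5 each). The corresponding difference of -0.80 ± 0.19 on the log2 scale (SE) passed the test (edgeR adjusted p = 0.00507). These levels rest on 65 to 180 fragments per library. Within the libraries with the abundant loci listed at 0 it was -0.81 and within the others -0.76, without passing in either set of 5 (edgeR adjusted p = 0.0831 and 0.0687). The tumour epithelial, fibroblast and endothelial sums given above moved with Il6, and their part in this result was not tested. In bulk samples, fewer cells of a type and less RNA per cell cannot be told apart.

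Il10 (chromosome 1, 131019845 to 131024974) was measured at 19.6, 18.4, 16.8, 16.5 and 15.7 CPM in vehicle replicates 1 to 5. In JHU083 replicates 1 to 5 its level was 24.3, 5.90, 8.95, 8.26 and 14.6 CPM. Vehicle samples lay close together, 4 treated samples lay below all of them and JHU083 replicate 1 lay above all of them. The mean was 17.4 ± 1.54 CPM in vehicle and 12.4 ± 7.37 in JHU083 (SD, n = 5), and the log2 fold change of -0.49 ± 0.28 (SE) did not pass the test (edgeR adjusted p = 0.195). Without JHU083 replicate 1 the log2 fold change was -0.88 and passed (edgeR adjusted p = 0.00546). It was -0.02 within the libraries with the abundant loci listed at 0, which include that sample, and -0.93 within the others (edgeR adjusted p = 0.983 and 0.0403).

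Il12b (chromosome 11, 44400063 to 44414033) was scarce, with 7 to 37 fragments per library, a depth at which each value is imprecise. Its level was 1.97, 0.533, 1.13, 0.695 and 0.626 CPM in vehicle replicates 1 to 5 and 2.25, 0.754, 1.71, 1.68 and 2.42 CPM in JHU083 replicates 1 to 5. Only 2 treated samples lay above all vehicle samples. A difference of 0.80 ± 0.39 on the log2 scale (SE) did not pass (edgeR adjusted p = 0.117). Without vehicle replicate 1 the value was 1.23 and passed (edgeR adjusted p = 0.0258). Without JHU083 replicate 2 it was 1.00 and did not pass (edgeR adjusted p = 0.0507). The difference was 1.68 within the libraries with the abundant loci listed at 0 and 0.05 within the others (edgeR adjusted p = 0.0439 and 0.954). Whether the library sets differ in this was not tested.

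The relation of Il10 to Il12b is often used to describe the balance of restraining and activating cytokines in macrophages. The ratio of their CPM values was 9.93, 34.4, 14.9, 23.7 and 25.1 in vehicle replicates 1 to 5. It was 10.8, 7.82, 5.22, 4.91 and 6.03 in JHU083 replicates 1 to 5. The ranges overlapped through vehicle replicate 1 and JHU083 replicate 1, and the other 4 treated samples lay below all vehicle samples. These ratios are not corrected for transcript length and rest on the low fragment numbers of Il12b. The ratio of Il10 to Il6 ran from 1.20 to 2.14 in vehicle and from 1.01 to 3.24 in JHU083. That of Socs3 to Stat3 ran from 1.44 to 1.73 and from 1.41 to 1.51, so the groups overlapped for both.

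Ebi3 (chromosome 17, 55952640 to 55957022) shares its locus with Ccdc94, so its values cover both genes. They were 31.6, 25.7, 23.9, 21.9 and 26.6 CPM in vehicle replicates 1 to 5 and 22.8, 23.9, 24.4, 20.6 and 19.5 CPM in JHU083 replicates 1 to 5. The groups overlapped, and the log2 fold change of -0.23 ± 0.11 (SE) did not pass (edgeR adjusted p = 0.114). With scaling to library size alone it passed, at -0.30 (edgeR adjusted p = 0.0371), and with a smooth curve in GC content and length removed it was -0.0049 and did not pass. Within the libraries with the abundant loci listed at 0 it was -0.07 and within the others -0.39 (edgeR adjusted p = 0.824 and 0.0988).

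Among the receptors, Il6ra showed the largest difference of the 10 genes relative to its error. Il6ra (chromosome 3, 89864059 to 89913196) encodes the chain that binds interleukin-6. Its level was 62.1, 56.5, 63.1, 63.9 and 65.1 CPM in vehicle replicates 1 to 5 and 111, 102, 78.4, 100.1 and 91.9 CPM in JHU083 replicates 1 to 5. Every treated sample lay above every vehicle sample, a separation found upward in 11.2% of the loci tested. The vehicle mean was 62.1 ± 3.31 CPM and the JHU083 mean 96.8 ± 12.4 (SD, n = 5 each). The increase of 0.64 ± 0.09 on the log2 scale (SE) passed the test (edgeR adjusted p = 0.000136). It was 0.62 within the libraries with the abundant loci listed at 0 and 0.64 within the others (edgeR adjusted p = 0.0415 and 0.00348). Macrophage genes also summed higher in JHU083, as given above, and their part in this result was not tested.

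Il6st (chromosome 13, 112464070 to 112510086), which encodes the signalling chain gp130, did not follow Il6ra. Its level was 42.6, 60.5, 68.5, 51.8 and 41.4 CPM in vehicle replicates 1 to 5 and 52.2, 59.4, 39.9, 58.8 and 61.6 CPM in JHU083 replicates 1 to 5. Both groups covered nearly the same range. Its difference was 0.04 ± 0.15 on the log2 scale (SE, edgeR adjusted p = 0.861), and its sign changed under several of the alternatives tried. It was -0.15 within the libraries with the abundant loci listed at 0 and 0.10 within the others.

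Il10ra (chromosome 9, 45253837 to 45269149), which encodes the chain that binds interleukin-10, was measured at 189, 165, 152, 183 and 198 CPM in vehicle replicates 1 to 5. In JHU083 replicates 1 to 5 it was 199, 189, 174, 158 and 162 CPM. The ranges overlapped almost fully, and the log2 fold change was -0.01 ± 0.09 (SE, edgeR adjusted p = 0.953). Its sign also changed under several alternatives, with 0.04 within the libraries with the abundant loci listed at 0 and -0.02 within the others.

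Il10rb (chromosome 16, 91406164 to 91425834), the signalling chain of the same receptor, is listed at 1 locus with Ifnar2, a chain of the type I interferon receptor, and Gm21970. In the annotation Ifnar2 spans 91372783 to 91405589 and Gm21970 spans 91391721 to 91419451, on the same strand, so Gm21970 overlaps both receptor genes. The locus gave 313, 292, 312, 305 and 341 CPM in vehicle replicates 1 to 5 and 394, 374, 382, 362 and 378 CPM in JHU083 replicates 1 to 5. Every treated sample lay above every vehicle sample. The locus rose by a log2 fold change of 0.27 ± 0.06 (SE, edgeR adjusted p = 0.00375). Within the libraries with the abundant loci listed at 0 the value was 0.31 and within the others 0.24, without passing in either (edgeR adjusted p = 0.124 and 0.142). Which of the 3 genes rose cannot be told apart from these values.

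Stat3 (chromosome 11, 100885098 to 100939540), the transcription factor that both receptors activate, had 205, 229.6, 231, 212 and 208 CPM in vehicle replicates 1 to 5. In JHU083 replicates 1 to 5 it had 261, 252, 214, 255 and 246 CPM. Of the treated samples, 4 lay above all vehicle samples and JHU083 replicate 3 lay within their range. This difference of 0.18 ± 0.07 on the log2 scale (SE) did not pass (edgeR adjusted p = 0.0638). It passed without JHU083 replicate 3, at 0.23 (edgeR adjusted p = 0.00876), and once a curve in GC content and length was removed, also at 0.23 (edgeR adjusted p = 0.00492). The 5 libraries with the abundant loci listed at 0 gave 0.14 and the others 0.20 (edgeR adjusted p = 0.551 and 0.242).

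Socs3 (chromosome 11, 117966079 to 117970047) is the feedback inhibitor whose sequence upstream of the coding transcript is printed above. It gave 331, 365, 334, 338 and 361 CPM in vehicle replicates 1 to 5. In JHU083 replicates 1 to 5 it gave 378, 372, 323, 359.7 and 364 CPM. The groups overlapped, the difference was 0.06 ± 0.07 on the log2 scale (SE, edgeR adjusted p = 0.528), and the lowest of all 10 values was in JHU083 replicate 3. With the curve in GC content and length removed it was 0.28 (edgeR adjusted p = 0.00552), and with scaling to library size alone it was -0.02 (edgeR adjusted p = 0.811), so the direction of Socs3 depended on the processing. The 5 libraries with the abundant loci listed at 0 gave -0.01 and the others 0.13.

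**Figure D2:**
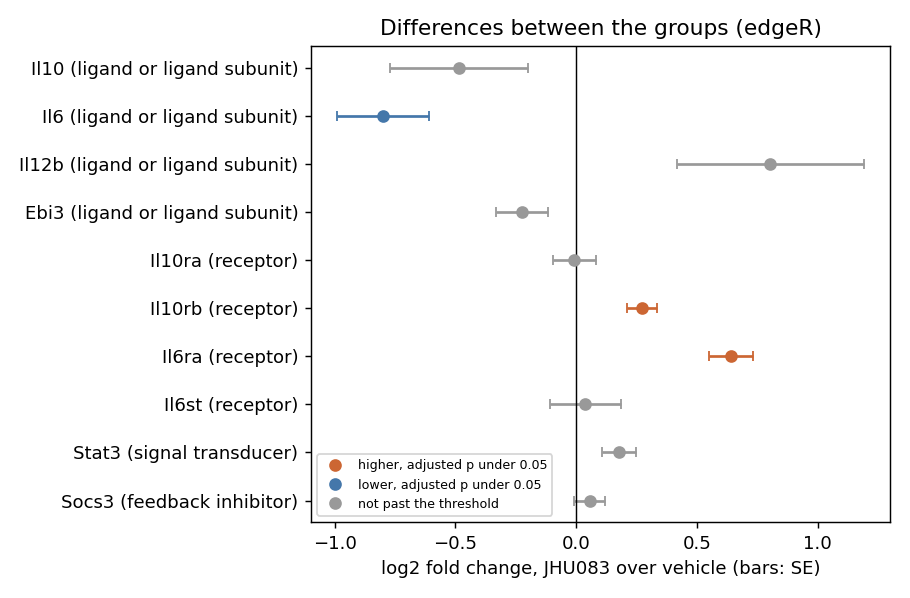
The log2 fold change of each gene between JHU083 and vehicle (x axis; bars are SE of the edgeR fit), ordered by role on the y axis and coloured by the adjusted p threshold of 0.05. Il6 is the gene past the threshold on the lower side, at -0.80, and Il6ra at 0.64 and the Il10rb locus at 0.27 are past it on the higher side.

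Each of the 10 libraries was also left out in turn. Without 1 library, the log2 fold change of Il6 stayed between -0.93 and -0.71 and that of Il6ra between 0.58 and 0.71, and both passed in all 10 fits (highest edgeR adjusted p = 0.0161 and 0.00069). The Il10rb locus stayed between 0.25 and 0.30 and passed in all 10 (highest edgeR adjusted p = 0.0148). Il10 moved between -0.88 and -0.30, Il12b between 0.64 and 1.23 and Stat3 between 0.16 and 0.23, and each passed in 1 of the 10 fits.

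**Figure D3:**
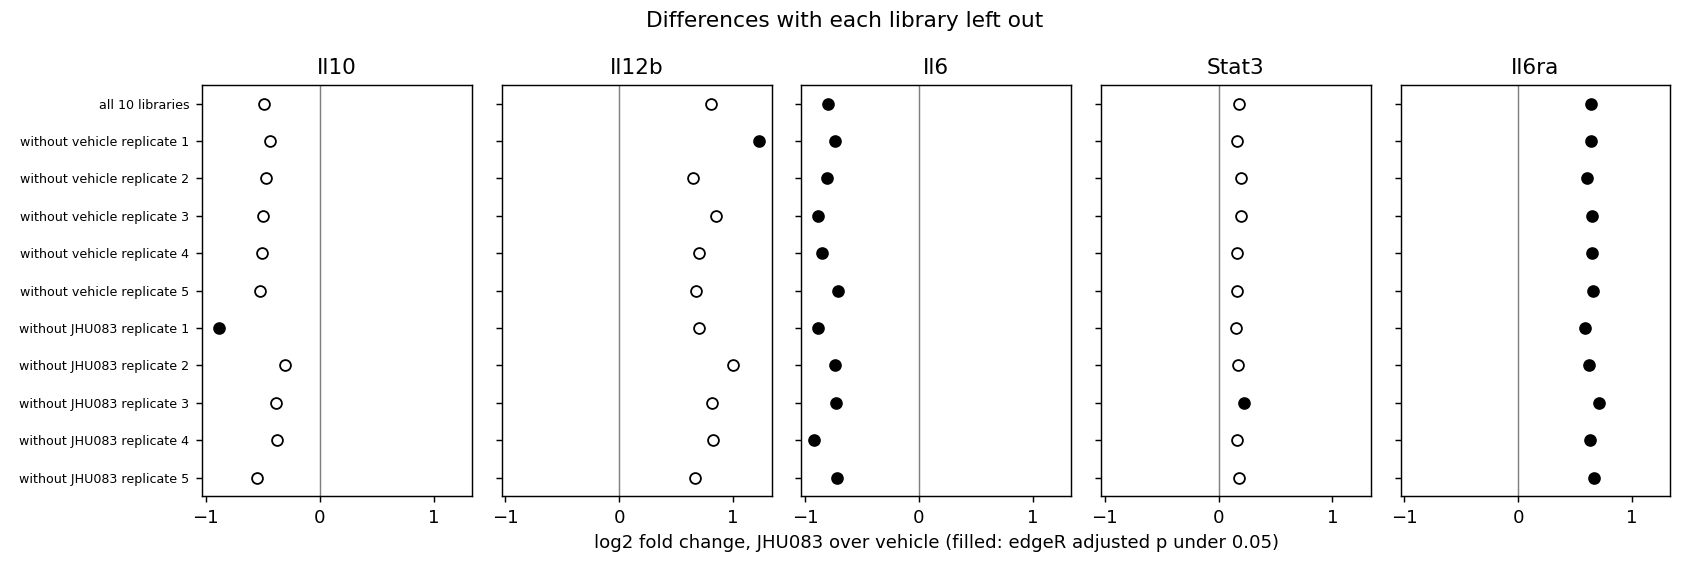
The log2 fold change of Il10, Il12b, Il6, Stat3 and Il6ra (x axis) with all 10 libraries and with each library left out (y axis); filled points have an edgeR adjusted p under 0.05. Il10 is filled in the row without JHU083 replicate 1, at -0.88, and Il12b in the row without vehicle replicate 1, at 1.23.

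Levels of different genes were compared per length, as FPKM. In vehicle, the median deposited FPKM was 133 for Socs3, 51.3 for Il10ra, 48.7 for Stat3, 14.2 for Il10, 11.1 for Il6ra, 10.1 for Il6, 6.64 for Il6st and 0.386 for Il12b. The vehicle ranges of Il10ra (42.9 to 55.4 FPKM) and Stat3 (46.1 to 63.0 FPKM) overlapped, as did those of Il6ra (10.8 to 12.2) and Il6 (8.07 to 12.9), and of Il6 and Il6st (5.02 to 9.27). In JHU083 the median FPKM was 145 for Socs3, 60.9 for Stat3, 49.2 for Il10ra, 19.3 for Il6ra, 8.51 for Il6st, 7.44 for Il10, 5.64 for Il6 and 0.950 for Il12b. Il10 thus stood above Il6ra in every vehicle sample (13.2 to 16.3 FPKM against 10.8 to 12.2), and in JHU083 the median of Il6ra was above that of Il10. The deposited FPKM depends on the length each transcript mix implies. For Il6st that length ran from 3.87 kb in JHU083 replicate 4 to 8.30 kb, so its highest FPKM, 14.6 in that sample, went with a level of 58.8 CPM, within the vehicle range. With annotated exon lengths, the vehicle median of Stat3 was 23.0 FPKM, below the 54.1 of Il10ra. On those lengths Il6 in vehicle was at 4.63, just below Il6st at 4.82, and Il6ra was at 7.43. In JHU083 the medians on those lengths put Stat3 (25.7) below Il10ra (46.9) and Il6st (5.08) below Il10 (6.44). The Il10rb and Ebi3 loci hold several genes and were left out of this order.

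The neighbouring genes of the pathway were read from 8 lists of 94 genes, of which 93 matched a locus and 78 loci were tested. Of these, 24 were higher, 16 were lower and 38 did not pass, with a median log2 fold change of 0.06. These counts, and those of each list, stand beside 18.4% higher and 18.3% lower over all loci tested. From each list, called genes among those with the largest differences are named.

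Other interleukin-6 family genes went both ways, with 2 of 10 tested higher, 4 lower and a median log2 fold change of -0.09. The receptor genes Il11ra1 and Lifr, which encode chains for interleukin-11 and leukaemia inhibitory factor, rose by 0.60 ± 0.14 and 0.54 ± 0.12 on the log2 scale (SE, edgeR adjusted p = 0.00395 and 0.00352). Osmr, the oncostatin M receptor gene, fell by 1.46 ± 0.37 and Il27, the partner of Ebi3, fell by 1.16 ± 0.29 (SE, edgeR adjusted p = 0.00701 and 0.00631). Lif, named after its values were seen, fell from 14.6 ± 3.79 to 7.04 ± 1.66 CPM (SD, n = 5, edgeR adjusted p = 0.0011), with every treated sample below every vehicle sample. Osm, the oncostatin M gene, had means of 283 CPM in vehicle and 287 in JHU083 (edgeR adjusted p = 0.866). The level of Osmr was at most 4.68 CPM in any library. Called tumour epithelial and fibroblast genes and Pecam1 fell in the same samples, as given above, and their part in these decreases was not tested.

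All 3 tested genes of the interleukin-12 family outside the set were lower, with a median log2 fold change of -1.51. Il12rb1, the receptor chain shared by interleukin-12 and interleukin-23, fell from 15.9 ± 1.99 to 5.56 ± 1.30 CPM (SD, n = 5), by 1.51 ± 0.15 on the log2 scale (SE, edgeR adjusted p = 1.12e-05), and the groups did not overlap. Il23a, the interleukin-23 subunit that pairs with p40, fell from 5.32 ± 1.71 to 1.52 ± 1.23 CPM (SD, n = 5, edgeR adjusted p = 0.00275). Il12rb2 fell by 0.78 ± 0.29 on the log2 scale (SE, edgeR adjusted p = 0.0467). Il12a, the subunit that pairs with p40 in interleukin-12, had at most 4 fragments in any library and was not tested, and the receptor gene Il23r had none. The 5 tested tumour epithelial genes fell in the same samples. Neutrophil genes went both ways, with S100a8 and S100a9 lower and Csf3r higher. Of the 3 tested endothelial genes, only Pecam1 was lower. The part of these marker genes in the decreases was not tested. Of 9 other interleukin-10 family genes, 1 was tested and did not pass (Il20rb, log2 fold change 0.40, edgeR adjusted p = 0.383), and Il20, Il22 and Il22ra1 had no fragment in any library. Il24, named after its values were seen, was left out by the filter on low counts: it had 0.705 to 2.97 CPM in vehicle and 0 to 0.224 in JHU083, with at most 39 fragments in a library.

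Among Janus kinases and the other STAT genes, 1 of the 9 tested loci was higher and 4 were lower, with a median of -0.11. Jak1, the kinase used by both receptors, rose from 204 ± 14.7 to 269 ± 22.8 CPM (SD, n = 5), by 0.40 ± 0.08 on the log2 scale (SE, edgeR adjusted p = 0.00133). Jak3, whose locus also lists Insl3, fell by 0.59 ± 0.10 and Stat2 fell by 0.45 ± 0.09 on the log2 scale (SE, edgeR adjusted p = 0.000581 and 0.00155). The log2 fold changes of Jak2 and Tyk2 were -0.01 and -0.11 (edgeR adjusted p = 0.969 and 0.262). Called marker genes of other cells fell or rose in the samples where Jak3 and Stat2 fell, as given above. Their part was not tested.

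The inhibitors of the pathway outside the set gave 6 higher and 2 lower of 15 tested, with a median of 0.07. Socs1, a relative of Socs3 that restrains interferon signalling, fell from 18.3 ± 2.31 to 7.17 ± 1.91 CPM (SD, n = 5), by 1.35 ± 0.17 on the log2 scale (SE, edgeR adjusted p = 5.17e-05). Every treated sample was below every vehicle sample for Socs1, whereas the groups overlapped for Socs3. The 5 tested tumour epithelial genes also fell there. Among neutrophil genes S100a8 and S100a9 were lower and Csf3r higher, and only Pecam1 of the 3 tested endothelial genes was lower. The part of these marker genes in the decrease of Socs1 was not tested. Ptpn6, a phosphatase gene, fell by 0.33 ± 0.12 on the log2 scale (SE, edgeR adjusted p = 0.0454). Pias2, Socs4 and Socs6 rose by 0.47 ± 0.09, 0.47 ± 0.10 and 0.41 ± 0.11 on the log2 scale (SE, edgeR adjusted p = 0.0012, 0.00308 and 0.00872).

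Genes known to be induced by interleukin-10 or STAT3 in macrophages moved in both directions. Of 23 tested, 7 were higher, 3 were lower and 13 did not pass, with a median of 0.10. Junb is listed at 2 loci and only the first was read. That locus had at most 3 fragments in any library and was not tested. Dusp1, a phosphatase gene, rose from 328 ± 19.5 to 578 ± 77.1 CPM (SD, n = 5), by 0.81 ± 0.09 on the log2 scale (SE, edgeR adjusted p = 1.58e-05). Tnfrsf1b and Etv3, a TNF receptor gene and a repressor gene, rose by 0.41 ± 0.08 and 0.40 ± 0.11 (SE, edgeR adjusted p = 0.00111 and 0.00961). In the other direction, Il1r2, the decoy receptor for interleukin-1, fell from 93.4 ± 10.3 to 26.7 ± 8.60 CPM (SD, n = 5), by 1.81 ± 0.19 on the log2 scale (SE, edgeR adjusted p = 1.49e-05). Lcn2 and Ddit4 fell by 1.49 ± 0.22 and 0.78 ± 0.12 (SE, edgeR adjusted p = 0.000168 and 0.000314). As given above, the 5 tested tumour epithelial genes fell in the same samples. S100a8 and S100a9 fell there too, while the neutrophil gene Csf3r rose. The part of these marker genes in the decreases was not tested.

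Genes that control the transcription or decay of Il10, Il6 and Il12b messages had a median log2 fold change of 0.33. Of 15 tested by edgeR, 7 were higher and 0 lower. Macrophage genes also summed higher in JHU083, as given above, and their part in these increases was not tested. Irf4, an interferon regulatory factor gene, rose from 8.91 ± 2.52 to 19.5 ± 6.01 CPM (SD, n = 5), by 1.13 ± 0.22 on the log2 scale (SE, edgeR adjusted p = 0.00123). Map3k8, a kinase gene downstream of Toll-like receptors, rose by 0.67 ± 0.09 (SE, edgeR adjusted p = 0.000102), and Atf3, a repressor gene that can act on Il6 and Il12b, rose by 0.61 ± 0.12 (SE, edgeR adjusted p = 0.00152). Zc3h12a and Arid5a, which encode a factor that degrades Il6 messages and one that stabilises them, were at -0.07 and 0.0047 (edgeR adjusted p = 0.63 and 0.97). Of the proteases that release the interleukin-6 receptor from the cell surface, Adam10 rose by 0.32 ± 0.11 (SE, edgeR adjusted p = 0.0311) and Adam17 was at 0.23 ± 0.10 without passing (SE, edgeR adjusted p = 0.0912).

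**Figure D4:**
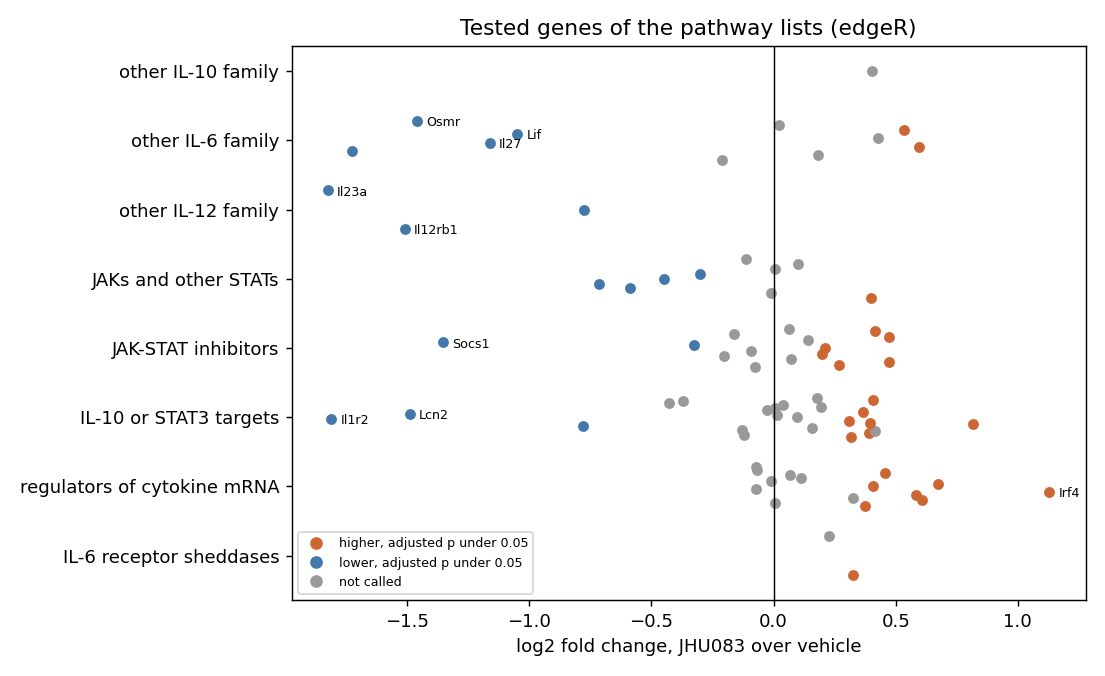
The log2 fold change between JHU083 and vehicle (x axis) of each tested locus in the 8 lists (y axis), coloured by the edgeR adjusted p threshold of 0.05, with names for some of the called genes beyond 0.9 in either direction. Lower genes of the interleukin-12 family reach -1.82 (Il23a), and Irf4, at 1.13, is the highest of all lists.

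The loci most like 4 of the genes were sought over the 10 samples among 10117 loci outside the set with an average log2 CPM of at least 2. For Il6 they were Rad51ap1 and Cwc25 (Pearson r = 0.96 and 0.95). For Il10 they were Nfe2l1 and Il18bp (r = 0.93 and 0.93). For Stat3 they were Gm26778 and Zfp946 (r = 0.98 and 0.98), and for Socs3 Brd1 and Tle4 (r = 0.94 and 0.90). These values describe the 10 libraries, which share the treatment difference and depth, and come from a search over many loci.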

How the data were processed

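RNA was measured in 10 samples, 5 per treatment, from poly(A)-selected, randomly primed paired-end libraries, per the labels' protocols. The submitters' processing notes name bcl2fastq 2.17.1.14, FastQC 0.11.2, TopHat2 2.1.1 and GRCm38; the counting program and annotation are not given in the sources used here. The authors deposited a column headed as raw counts whose values are expected counts, not whole numbers. They are multiples of a step per sample, and division by it gave values within 0.02 of a whole number for 99.888% to 99.956% of values under 1000 fragments. These whole fragments, an inference from the values, were tested. The authors also deposited a normalized column, taken as FPKM from its values and used for levels between genes. Of the loci, 1060 list several symbols, and 1 locus without a symbol, with at most 0.00209% of fragments, was left out.

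Loci were filtered with filterByExpr and scaled with TMM, and the groups were compared by the quasi-likelihood test of edgeR 4.0.16 in R 4.3.3 without covariates. This gives the adjusted p-values unless another fit is named. CPM uses TMM-scaled totals, with a prior count of 2 on the log2 scale. Positions and lengths come from GENCODE M21. All member loci and lists were chosen with earlier results of these data known. Named list genes are at most 3 per direction and list, by size of the difference among those called, and some that the rule names are not reported here; genes most alike are the 2 with the highest Pearson r. A few others were named after their values were seen, as contrasts within a list. The tests were checked on simulated data. Alternatives were DESeq2 1.42.0, limma 3.58.1, other scalings, filters and sample sets, a replicate block, and removal of a smooth curve in GC content and length (mgcv 1.9.3). The search for receptor motifs in protein sequences, which were not used here, was not run. Depth is given with the results. At these depths a locus with few fragments, such as Il12b, is measured imprecisely.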

Additional observations from a re-analysis of the deposited data

How the results depend on the processing

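Over the 10 genes, 248 values were recomputed under the alternatives. Of these, 216 kept direction and side of the threshold, 10 gained a call, 4 lost one and 18 changed sign, all 18 for Il10ra, Il6st or Socs3. The 4 losses were Il6 and the Il10rb locus within each library set, which hold fewer samples. Within the 5 libraries with the abundant loci listed at 0, 532 loci were higher and 586 lower, and 0 of the 10 genes were lower by edgeR (Il10 was at -0.0165 and Il6 at -0.8076). Within the other 5, 1276 loci were higher and 1 of the 10 genes was. With loci listing 1 symbol, 1 of the 8 genes tested was higher, beside 2143 of all loci. After the GC and length correction, with or without the replicate block, 4 were higher, the further ones being Stat3 and Socs3. Over all loci, 2715 were higher after the correction and 2184 with the block as well, against 2296 in the main fit. With library-size scaling 2 were lower, the further one being Ebi3, beside 3141 of all loci. With 1 library left out, 2 to 3 were higher and 1 to 2 were lower. Over all loci these fits gave 1821 to 2899 higher and 1900 to 2930 lower. The cause of the gains was not tested.

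Il10ra changed sign with the library status as a covariate (0.0127), within the libraries listed at 0 (0.0391), after the GC and length correction (0.1027), with the block as well (0.1020), and lay from -0.0598 to 0.0322 with 1 library left out. Il6st did so with library-size scaling (-0.0439), the covariate (-0.0224), within the libraries listed at 0 (-0.1523), after the correction (-0.0095), with the block as well (-0.0020), and lay from -0.0401 to 0.1475 with 1 library left out. Socs3 did so with library-size scaling (-0.0243) and within the libraries listed at 0 (-0.0139).

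Same-numbered vehicle and JHU083 samples were not more alike than others. The mean correlation of same-numbered deviations was -0.34, with each of the 5 below 0, against 0.0794 for different numbers. Such values cannot tell whether the numbers pair mice. With the replicate block 1612 loci were higher and 1757 lower, and the 10 genes kept 2 higher and 1 lower.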
